A study of Mus musculus with 3 samples.

Results

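GATA4 peaks near 9 genes of the gastric parietal cell were examined in stomach mucosa of adult mice. The genes encode the receptors through which acid secretion is stimulated (Hrh2, Cckbr, Chrm3), regulators of energy metabolism (Esrrb, Esrrg, Ppargc1a), an ion exchanger and a water channel (Slc9a4, Aqp4) and an enzyme of energy supply (Ckb). A peak was included when the authors' HOMER annotation gave 1 of these 9 genes as the owner of the nearest transcription start site (TSS). This rule returned 42 of the 50869 peaks in the deposited list, with at least 1 peak for each gene. The mice were 10 to 12 months old and of the genotype G4fb/fb R26 Bira/Bira, which carries a GATA4 with a Flag and biotin tag and the biotin ligase BirA from the R26 locus, so that GATA4 and its DNA could be collected on streptavidin beads. There were 2 pull-down libraries and 1 input library of chromatin without pull-down. All 3 libraries shared this genotype, so no library lacked the tag or the ligase, and the enrichment is over input only. The labels do not say whether the pull-downs came from separate animals or how many animals each pooled.

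Parietal cells secrete hydrochloric acid. Histamine acting on the H2 receptor raises cyclic AMP, while gastrin acting on the CCK-B receptor and acetylcholine acting on the M3 receptor raise calcium, and these signals bring the proton pump to the apical membrane. Pumping is costly, so parietal cells are packed with mitochondria, and the estrogen-related receptors with their coactivator PGC-1α are known to switch on mitochondrial genes. GATA4 is a zinc finger factor of foregut epithelium that binds DNA around the letters GATA.

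The authors' caller pooled both pull-downs, which left 38770530 tags after filtering against 23023152 input tags. The files therefore hold 1 value per peak, not 1 per library, and the spread between the pull-downs is unknown. Fold enrichment below is the authors' value per peak. It is the ratio of pull-down coverage at the summit to the caller's local input level, with 1 added to each. Tags are the number of pull-down reads over the summit. The interval given beside a fold or a tag number is an exact 95% Poisson interval of those tags with the input held fixed, so it covers counting error only. Peaks describe 1 list, so no test between samples was possible. Mucosa is a mixture of cell types and RNA was not measured, so the labelled tissue could not be checked against marker genes. A site bound in few cells and a site bound weakly in many cannot be told apart.

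The median fold of the 42 peaks was 4.13 (quartiles 3.76 and 4.91), beside 4.37 (3.90 and 5.28) over all peaks. A fold of at least 5 was reached by 9 of the 42 peaks (21.4%, exact 95% binomial interval 10.3 to 36.8), beside 30.3% of all peaks, a share inside that interval. A single peak, the one at Ppargc1a, was among the peaks with a −log10 q of at least 9.66, a limit set at the top 10% that ties widen to 11.7% of the list. The summits held 15 to 36 tags with a median of 21, beside a median of 22 over all peaks. The fold intervals of most peaks overlapped. Of 861 pairs of peaks, 5 had fold intervals that did not overlap, and each of these set the Ppargc1a peak apart from a weaker one. Overlap of intervals is not a test of a pair, and it does not show that overlapping peaks are equal. Peaks of the same gene are not independent, and the members were chosen with earlier results of these data known, so these counts are descriptions.

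Most of the genes had a peak at the start site, and most of the peaks lay away from it. The TSS had a peak centred within 1 kb of it at 7 of 9 genes, beside 57.4% of protein-coding genes. The same 7 genes made up the count within 10 kb, beside 64.4%. The exceptions were Ppargc1a and Aqp4. All 9 genes had a peak at some distance, beside 73.7%. Within 10 kb, 5 of 9 genes had a peak of at least 5-fold (Chrm3, Esrrb, Esrrg, Slc9a4 and Ckb), beside 41.5%. Of the 42 peaks, 13 lay within 1 kb of the TSS, or 31.0%, beside 31.7% of all peaks. A further 3 lay at 1 to 10 kb, 21 at 10 to 100 kb and 5 farther away. Median fold was 4.69 in the 13 peaks within 1 kb and 4.12 in the 29 others. Over all peaks the medians at these distances were 5.23 and 4.26. By annotation, 15 peaks were in introns, 14 between genes, 4 in exons, 4 in 5′ untranslated regions, 3 in promoters and 2 at transcription end sites. Repeat or low-complexity sequence held 7 of the 42 peaks, or 16.7%, beside 19.5% of all peaks.

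**Figure D1:**
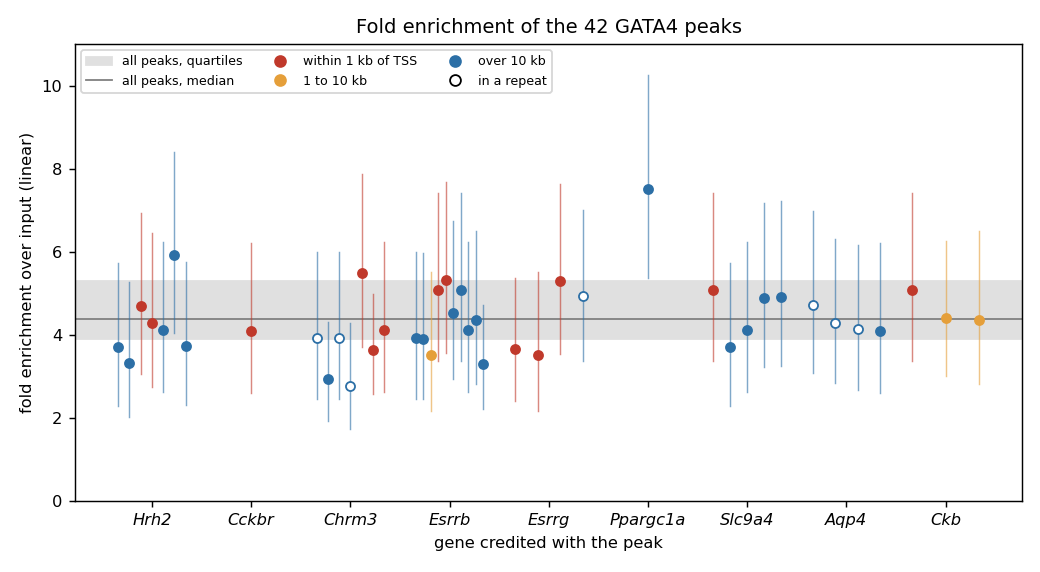
Fold enrichment over input (linear axis) of each of the 42 peaks, grouped by gene and ordered within a gene from upstream to downstream. Points are the authors' values, thin lines are 95% counting intervals, the grey band and line are the quartiles and median of all 50869 peaks, and open points lie in repeats. The Ppargc1a peak at 7.50-fold and the Hrh2 peak at 5.91-fold stand highest, and most other points lie in or below the grey band.

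The promoter sequences give the DNA next to these start sites. They are shown for the 5 genes whose start-site peak reached upstream of the TSS and which RefSeq's promoter table holds, as the 250 bases before the start, 5′ to 3′ on the gene's strand, in build GRCm38.p6. Positions below count the base just before the start as −1. The peaks are in mm9, so sequence and peak are related here through distance to the start only, and start sites may differ between the annotations. For Esrrb and Esrrg, the table entries were picked because their start sites are as far apart as those of the deposited annotation, 60527 and 388821 bp. Capitals mark the letters GATA on either strand (TATC where on the other strand).
Hrh2 (chromosome 13, 54191879 to 54192128, plus strand): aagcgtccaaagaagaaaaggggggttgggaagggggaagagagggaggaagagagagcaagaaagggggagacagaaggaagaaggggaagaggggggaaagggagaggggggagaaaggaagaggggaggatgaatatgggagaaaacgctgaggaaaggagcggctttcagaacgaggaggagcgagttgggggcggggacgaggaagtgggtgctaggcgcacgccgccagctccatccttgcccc
Chrm3 (chromosome 13, 10360804 to 10361053, minus strand): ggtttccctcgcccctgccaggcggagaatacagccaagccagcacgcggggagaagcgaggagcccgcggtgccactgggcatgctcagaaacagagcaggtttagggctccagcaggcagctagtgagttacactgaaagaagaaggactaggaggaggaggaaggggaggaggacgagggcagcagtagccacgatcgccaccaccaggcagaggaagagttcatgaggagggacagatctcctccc
Esrrb, downstream start (chromosome 12, 86421394 to 86421643, plus strand): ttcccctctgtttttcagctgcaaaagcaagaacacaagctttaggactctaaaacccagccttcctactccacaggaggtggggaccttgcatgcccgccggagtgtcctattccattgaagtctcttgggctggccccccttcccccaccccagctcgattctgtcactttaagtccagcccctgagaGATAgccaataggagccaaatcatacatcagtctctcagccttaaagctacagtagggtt
Esrrg, downstream start (chromosome 1, 187997577 to 187997826, plus strand): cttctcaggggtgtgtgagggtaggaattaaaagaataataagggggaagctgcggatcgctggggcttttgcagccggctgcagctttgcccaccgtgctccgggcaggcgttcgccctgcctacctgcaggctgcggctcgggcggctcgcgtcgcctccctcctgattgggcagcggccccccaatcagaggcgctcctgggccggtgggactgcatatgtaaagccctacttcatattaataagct
Ckb (chromosome 12, 111672339 to 111672588, minus strand): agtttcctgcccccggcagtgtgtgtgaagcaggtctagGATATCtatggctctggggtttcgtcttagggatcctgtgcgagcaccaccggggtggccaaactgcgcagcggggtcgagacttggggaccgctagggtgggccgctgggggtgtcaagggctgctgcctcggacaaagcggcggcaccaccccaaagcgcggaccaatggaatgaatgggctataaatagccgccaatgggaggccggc

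Some of these windows held the letters GATA and others did not. The Hrh2, Chrm3 and Esrrg windows held none on either strand. The Esrrb window held 1 copy, which begins at −60 as part of AGATAG. The Ckb window held 2 overlapping copies, on opposite strands, that begin at −211 and −209. By distance to the start, all these copies lay upstream of the called peaks, which began at −30 bp at Esrrb and −179 bp at Ckb. The longer forms searched, on both strands, were AGATAA and its variant AGATAG as well as TGATAA and its variant TGATAG. They occurred in 1 of the 12 promoter windows that the table holds for 7 of the 9 genes, beside 26.5% of all 32851 windows of that length. The letters GATA alone occurred in 5 of the 12, beside 53.6%. Several windows belong to the same gene and some overlap, and no match says only that these letters are not in this window. In the Hrh2 window A and G made up 80% of the bases on the printed strand, a higher share than in 99.96% of all windows. In the Chrm3 window the share was 63.6%, higher than in 97.4%. G and C made up 59.6% of the Hrh2 window, 61.2% of the Chrm3 and Esrrg windows, 62.8% of the Ckb window and 52.0% of the Esrrb window, beside a median of 52.4%.

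Hrh2 encodes the histamine H2 receptor, the target of acid-lowering antihistamines, and its strongest peak was far from its promoter. It was credited with 7 peaks on chromosome 13, with 15 to 28 tags and folds of 3.32 to 5.91. The promoter peak (54287393 to 54287593) ran from −105 to 95 bp relative to the start, with 22 tags (13.8 to 33.3) and 4.69-fold (3.06 to 6.93). A second start-site peak in intron 1 of 2, centred 352 bp downstream, held 20 tags and reached 4.29-fold. The strongest peak was intergenic (54327386 to 54327617), 40.0 kb downstream of the start, with 28 tags (18.6 to 40.5) and 5.91-fold (4.04 to 8.39). Its rank was 7866th of all peaks by fold, and its interval overlapped that of the promoter peak. A peak at the transcription end site, 30.9 kb from the start, reached 4.12-fold, and another 46.6 kb away reached 3.72-fold. The 2 upstream peaks, 15.4 and 12.0 kb from the start, were the weakest of the gene at 3.70-fold and 3.32-fold.

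Chrm3 encodes the M3 muscarinic receptor, through which the vagus nerve acts on the parietal cell, and its peaks fell into a group at the start of the gene and a group far upstream. It was credited with 7 peaks on chromosome 13, with 17 to 35 tags, 3 of them within 1 kb of the TSS. The promoter peak (10360143 to 10360363), from −314 to −94 bp relative to the start, held 26 tags (17.0 to 38.1) and reached 5.48-fold (3.70 to 7.87). The peak in the 5′ untranslated part of exon 1 of 5 (10359530 to 10359974) held more tags, 35 (24.4 to 48.7), but reached 3.63-fold (2.58 to 4.98). The local input was 5.0 scaled tags there, the highest behind any of the 42 peaks, against 2.0 at the promoter peak. Fold and tag number thus ranked these neighbouring peaks in opposite order, and both their intervals overlapped. The third, in intron 1 of 4, held 19 tags and reached 4.12-fold. The other 4 peaks lay 242 to 534 kb upstream between genes, at 2.77-fold to 3.92-fold. Of these, 3 were in repeats (L1Md_A, Lx and the IAPEz-int element), and no peak fell in the Chrm3 transcript beyond its first intron.

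Cckbr encodes the CCK-B receptor, which binds gastrin, and had a single weak peak. It lay in the 5′ untranslated part of exon 1 of 5 on chromosome 7 (112574264 to 112574556), 165 bp downstream of the start. It held 19 tags (11.4 to 29.7) and reached 4.09-fold (2.60 to 6.21), which was the lowest strongest peak among the 9 genes. Of all genes with a peak, 11.6% had a weaker strongest peak.

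Of 8 paralogues of these receptors, 5 had a peak within 10 kb (Hrh1, Hrh3, Cckar, Chrm1 and Chrm4), or 62.5%, beside 64.4% of all protein-coding genes. Their median strongest fold was 5.11, beside 5.51 over all protein-coding genes with such a peak. A peak, not always the strongest, lay within 1 kb at 4 of the 8, beside 57.4% of all protein-coding genes. Among the paralogues, the histamine H3 receptor gene Hrh3 and the M1 muscarinic receptor gene Chrm1 each reached 5.31-fold. The CCK-A receptor gene Cckar reached 5.11-fold in an intron 6.95 kb from its start. Hrh4 and Chrm5 were credited with no peak.

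**Figure D2:**
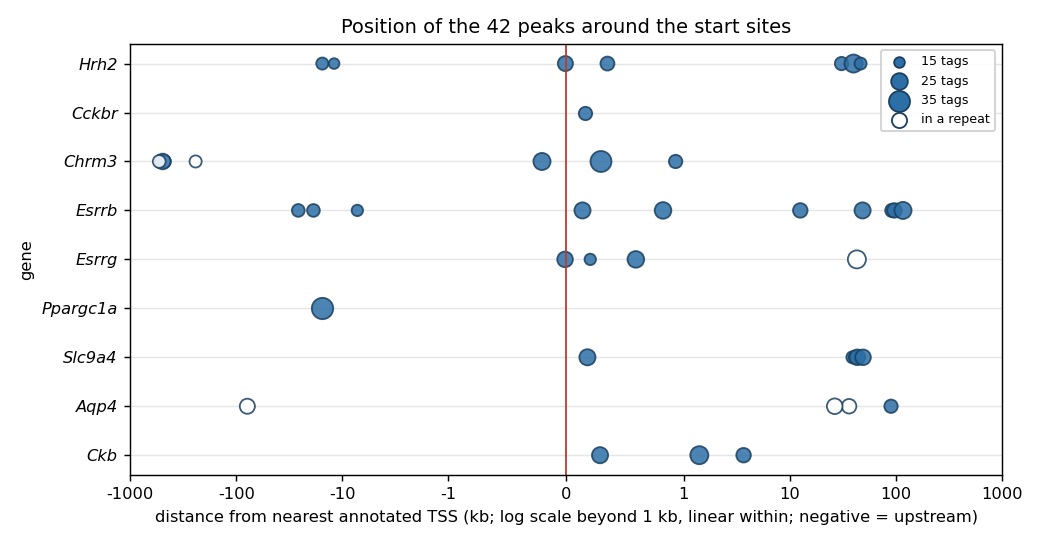
Position of the 42 peaks relative to the nearest annotated start site of their gene (kb, linear within 1 kb and logarithmic beyond, negative upstream), with larger circles for more tags at the summit and open circles in repeats. Ckb and Cckbr peaks all lie within 10 kb, Aqp4 and Ppargc1a have none there, and the Chrm3 peaks split into a group at the start and a group over 100 kb upstream.

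Esrrb, which encodes estrogen-related receptor β, an orphan nuclear receptor, had the most peaks of the 9 genes. It was credited with 10 on chromosome 12, spread over 185 kb, with 16 to 26 tags and folds of 3.29 to 5.31. At the downstream of its annotated starts, 1 peak ran from −30 to 311 bp relative to the start (87762564 to 87762905), with 24 tags (15.4 to 35.7) and 5.08-fold (3.38 to 7.40). A second, in a CpG island of intron 1 of 6 and centred 824 bp downstream (87763258 to 87763578), was the strongest, with 25 tags (16.2 to 36.9) and 5.31-fold (3.56 to 7.68). A peak in exon 2 of 7 (87811198 to 87811404), 48.7 kb from that start, equalled the start-site peak at 24 tags and 5.08-fold. These 3 were the gene's peaks of at least 5-fold. The nearest peak to the upstream start lay 7.21 kb before it and was weak, with 16 tags and 3.52-fold. By the annotation, 8 of the 10 peaks lay inside the gene, among them 1 in the last exon at 4.36-fold.

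Esrrg encodes estrogen-related receptor γ, which in mice is known for a role in gastric acid secretion. It had peaks at 2 of its starts in the deposited annotation. It was credited with 4 peaks on chromosome 1, with 16 to 28 tags, all in the gene or at its promoter. At the upstream start, peaks in a CpG island of intron 1 of 7 were centred 206 bp downstream (189432983 to 189433200), with 16 tags and 3.52-fold, and 593 bp downstream (189433334 to 189433623), with 25 tags (16.2 to 36.9) and 5.28-fold (3.54 to 7.64). At the downstream start a promoter peak (189821535 to 189821861) ran from −171 to 155 bp around it, with 23 tags and 3.66-fold (2.41 to 5.37). The fourth, in low-complexity sequence of intron 1, 43.0 kb from the upstream start, held the most tags of the gene, 28, and reached 4.93-fold. It ran from 42948 to 43138 bp after that start. RefSeq's promoter table, in build GRCm38.p6, holds further Esrrg starts 42752 and 43235 bp after its first entry. By distance alone the peak thus lay between those starts, though the builds differ. The intervals of all 4 overlapped.

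Ppargc1a encodes PGC-1α, the coactivator that works with the estrogen-related receptors, and its only peak was the strongest of the 42. The peak (chromosome 5, 51974285 to 51974585) was intergenic, 15.5 kb upstream of the start of a noncoding transcript of the gene. It held 36 tags (25.2 to 49.8) and reached 7.50-fold (5.36 to 10.3), over an input of 1.98 scaled tags. Its rank was 2870th of all peaks by fold, and 83.9% of genes with a peak had a weaker strongest peak. Its fold interval lay above those of 5 other peaks, 3 of Chrm3 and 1 each of Hrh2 and Esrrb. No peak was credited to the gene's promoter or body.

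Among 21 partners of the estrogen-related receptors and PGC-1, 16 had a peak within 10 kb, or 76.2%, with a median strongest fold of 6.39. Over all protein-coding genes the share was 64.4% and the median 5.51, and over the 7 of the 9 genes with such a peak the median was 5.08. They were led by the transcription factor gene Mef2d (18.0-fold, 5′ untranslated region), Nrf1 (9.50-fold), a regulator of nuclear genes for mitochondria, and Pprc1 (8.30-fold), a relative of PGC-1. Of 20 mitochondrial energy genes, 16 had one, or 80%, with a median of 5.98 and the highest values at Cpt2 (9.83-fold), of fatty acid import, Cox5a (9.54-fold), of cytochrome oxidase, and Sdhb (6.71-fold), of succinate dehydrogenase. Gabpa, Perm1, Sirt3, Cpt1b, Hadha and Mdh2 were among the 8 genes of these lists credited with no peak at any distance; a peak at a shared start region is credited to 1 gene only.

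Slc9a4 encodes the sodium-proton exchanger NHE4 of the basolateral membrane, and its peaks lay at its start and its 3′ end. It was credited with 5 peaks on chromosome 1, all in the gene, with 17 to 24 tags. The peak in the 5′ untranslated part of exon 1 of 12 (40637127 to 40637381) held 24 tags (15.4 to 35.7) and reached 5.08-fold (3.38 to 7.40). The other 4 lay 39.0 to 49.2 kb downstream, from intron 9 of 11 to the last exon, at 3.70-fold to 4.92-fold, with the last at 40686134 to 40686364. Their intervals all overlapped that of the start-site peak.

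The peaks at the 3′ end of Slc9a4 were followed by peaks of its paralogue Slc9a2, the gene of exchanger NHE2, on the same chromosome. The first Slc9a2 peak began 3.21 kb beyond the last Slc9a4 peak. Of 7 Slc9a2 peaks, 6 were intergenic, 22.1 to 48.9 kb before the Slc9a2 start, at 3.22-fold to 6.27-fold. The seventh, at the Slc9a2 promoter (40737809 to 40738853), held 57 tags (43.2 to 73.9) and reached 11.3-fold (8.61 to 14.5), so its interval lay above that of the Slc9a4 start-site peak. Intergenic peaks between these genes are credited by distance to a start alone. Of 10 exchanger genes and partners other than Slc9a4, 8 had a peak within 10 kb, beside 64.4% of all protein-coding genes, and their median strongest fold of 5.48 was close to the 5.51 over all. Slc9a2 led them, followed by the scaffold gene Slc9a3r1 (9.04-fold) and Slc9a5 (6.31-fold), while Slc9a9 was credited with no peak.

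Aqp4 encodes a water channel of the basolateral membrane, and it had no peak near its start. It was credited with 4 peaks on chromosome 18, with 19 to 23 tags, at 26.6 to 90.4 kb from its start and at 4.09-fold to 4.72-fold. The nearest (15534751 to 15535090) reached 4.29-fold (2.83 to 6.29). Of the 4 peaks, 3 lay in L1 repeats, including the strongest, 78.7 kb upstream in an intron of Chst9. Repeats held 4 of the 38 peaks of the other 8 genes. Of 10 other aquaporin genes, 8 had a peak within 10 kb, beside 64.4% of all protein-coding genes, and 5 had one within 1 kb, beside 57.4%. Their median strongest fold was 5.44, beside 5.51 over all, led by Aqp1 (6.91-fold), Aqp5 (6.51-fold) and Aqp3 (5.88-fold). Aqp6 was credited with none.

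Ckb encodes the brain-type creatine kinase, which regenerates ATP from phosphocreatine, and all its peaks lay within 4 kb of its start. It had 3 peaks on chromosome 12, with 21 to 28 tags. The start-site peak (112909793 to 112910728), which the annotation places in a CpG island of intron 1 of 7, was 936 bp long, the longest of the 42, and ran from −179 to 756 bp relative to the start. It held 24 tags (15.4 to 35.7) and reached 5.08-fold (3.38 to 7.40). A peak in exon 5 of 8 (112908697 to 112909595) held 28 tags over an input of 3.0 and reached 4.41-fold, and a peak at the transcription end site, 3.67 kb from the start, reached 4.36-fold. Of 10 other genes of creatine and adenylate kinases and creatine handling, 9 had a peak within 10 kb, beside 64.4% of all protein-coding genes. Their median strongest fold of 4.52 was under the 5.51 over all. A peak of at least 5-fold within 10 kb was found at 4 of the 10, beside 41.5% of all protein-coding genes. Gamt, of creatine synthesis, reached 10.5-fold, Ak4, an adenylate kinase of mitochondria, 6.27-fold and Ckmt1, a mitochondrial creatine kinase, 5.88-fold. Ckmt2 was credited with no peak.

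**Figure D3:**
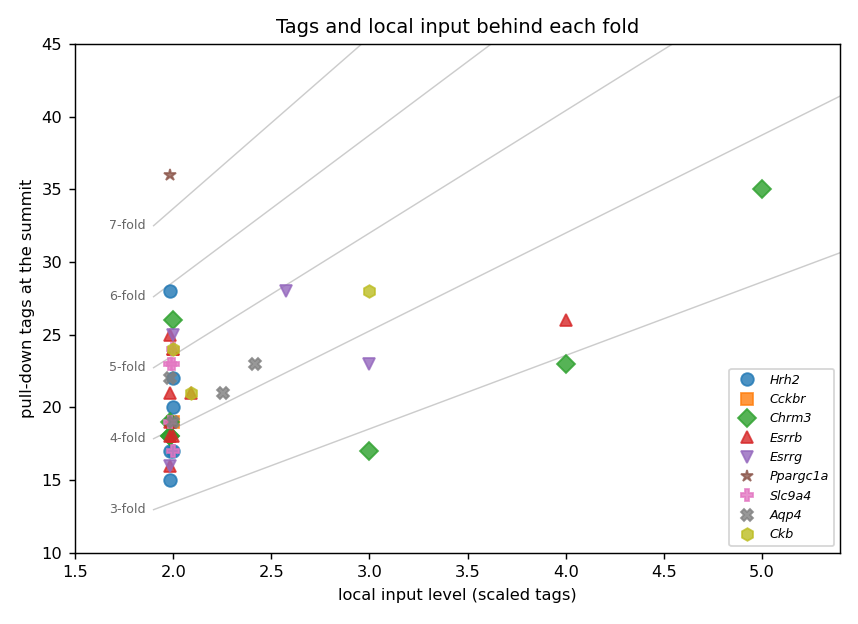
Pull-down tags at the summit against the local input level in scaled tags for the 42 peaks, by gene, with grey lines of equal fold. Most points stand at the genome-wide input level of 1.98 or close to it, where fold follows tags alone, while the Chrm3 exon 1 peak has 35 tags over an input of 5.0 and falls below 4-fold.

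The local input level behind the folds stood at its lowest value, or close to it, at most of these peaks. No peak of the whole list had a level under 1.98 scaled tags, which is the genome-wide level. This value is thus a floor, and input coverage below it cannot be seen here. At 31 of the 42, or 73.8%, the input level was within 0.03 of the genome-wide level of 1.98 scaled tags, beside 70.5% of all peaks, and there the fold follows the tag number alone. Within the same tolerance, input reached 3 or more at 6 peaks, 3 of Chrm3 and 1 each of Esrrb, Esrrg and Ckb.

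The signalling machinery below the receptors held some of the highest folds within 10 kb of a start among the genes listed. Of 24 genes for G proteins, adenylyl cyclases, protein kinase A, phospholipase C, calcium release and their targets, 22 had a peak within 10 kb, beside 64.4% of all protein-coding genes, and 20 had one of at least 5-fold, beside 41.5%. Their median strongest fold was 7.55. Over the 7 of 9 genes studied here that had such a peak, the median was 5.08, and over all protein-coding genes with one it was 5.51. Adcy6, an adenylyl cyclase that makes cyclic AMP, reached 12.1-fold (9.28 to 15.5) in intron 1. Prkar1a, a regulatory subunit of protein kinase A, and Itpr3, a calcium release channel, each reached 10.9-fold (8.24 to 14.1) in intron 1. The Adcy6, Prkar1a and Itpr3 peaks lay 1.34, 0.237 and 8.975 kb from the start. They were the strongest of 5, 2 and 8 peaks within 10 kb. Their fold intervals each lay above those of the start-site peaks of Hrh2, Cckbr and Chrm3. Itpr1 was credited with no peak.

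**Figure D4:**
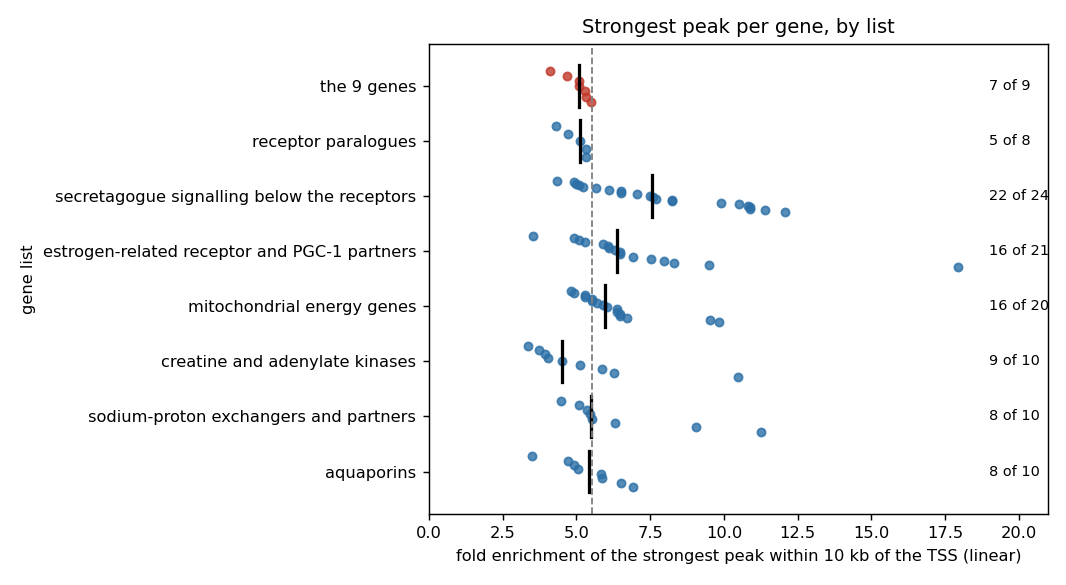
Fold enrichment (linear axis) of the strongest peak within 10 kb of the TSS, 1 point per gene, for the 9 genes and 7 lists of related genes; black bars are medians, the dashed line is the median of 5.51 over all protein-coding genes with such a peak, and the counts at the right give genes with a peak of genes matched. The signalling list has the highest median, 7.55, and the values of the 7 of 9 genes with such a peak lie between 4.09 and 5.48.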

How the data were processed

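The files are the authors' peak list and its annotation. Per the submitters' processing notes, Bowtie2, MACS2 and HOMER were used with build mm9. Per the file headers, MACS2 2.1.0.20140616 pooled both pull-downs against the input at a q-value limit of 0.05, kept 1 tag per position, extended tags to 161 bp and scaled the larger set down. Deposited values used here were the pileup at the summit (coverage signal, scaled), the ratio called fold enrichment, the −log10 q-value and HOMER's peak score. The names of 2 deposited columns were lost, and the −log10 q column was identified because 10 times its value, cut to a whole number, equalled the score in all 50869 peaks.

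Tags were pileup divided by 0.594; all 50869 values came out whole within 0.02. Local input was recovered from pileup and fold. Python 3.11.15 with scipy 1.17.1 gave exact Poisson and Clopper-Pearson intervals. The Poisson intervals and the joining of peaks were tested on simulated data, and the Clopper-Pearson intervals were not. Shares of genes are over 21031 genes that RefSeq's GRCm38.p6 table lists as protein-coding with a curated transcript; its coordinates were not used, except with the promoter sequences. All 103 genes of the 7 lists were matched there by symbol. The 9 genes and the lists were chosen with earlier results of these data known. Of the listed genes, the text names the 3 highest folds of a list, ties included, and up to 3 without a peak, except items that are not reported here; Hrh1 and Chrm4 are named to complete a count, and Hrh1 below was chosen after its values were seen. Alternatives varied the peak threshold, distance, assignment of peaks to genes, joining of peaks, repeats, ranking measure and pseudocount. No test between samples, and so no adjusted p, was possible.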

Additional observations from a re-analysis of the deposited data

How the results depend on the processing

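The 42 peaks fell to 10 with a −log10 q of at least 5, to 9 with a fold of at least 5, to 27 when only peaks inside a transcript of the gene were taken, and to 21 when gaps under 25 kb were joined. Other thresholds, joining gaps and the removal of repeats gave 28 to 36. The median fold of 4.13 became 2.96 with a pseudocount of 3, beside 3.09 over all peaks, and 4.60 with a −log10 q of at least 3, beside 4.72 over all peaks. Between 5 and 9 of the 9 genes had a peak under the distances and thresholds tried, against 7. The aquaporins with a peak fell from 8 to 5 within 1 kb, and the other lists changed by less than 1.5 times. Ranked by pileup or by fold, 1 peak of the 42 was again in the top 10%. Ranked by pileup, another peak became the strongest at 5 of the 9 genes: that of 3.63-fold at Chrm3, 3.29-fold at Esrrb, 4.93-fold at Esrrg, 4.29-fold at Aqp4 and 4.41-fold at Ckb. No pull-down could be left out, and no paired analysis was possible because the authors called peaks once on both pull-downs pooled. Depth limits the comparison of peaks: at 15 to 36 tags, nearly all counting intervals overlap.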

Other observations

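Hrh1, the gene of the histamine H1 receptor and a paralogue of Hrh2, was credited with 126 peaks, more than any other gene in the list, against 10 at most among the 9 genes studied here. Of these, 81 lay on unplaced sequence of mm9 and 45 on chromosome 6, and 4 were within 10 kb of its start. Median fold was 4.48 on the unplaced sequence and 4.24 on chromosome 6. Median local input was 2.25 and 3.0 scaled tags. Unplaced sequence of the build thus supplied 81 of the 126 peaks, and the reason for this was not tested. Counts of peaks per gene in this list therefore rest on placed and unplaced sequence together; the 42 peaks described above were all on placed chromosomes.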
